A study of Mus musculus with 6 samples.

Results

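The Wnt family and the proteins that receive or block it were followed as 46 genes in the regenerating proximal stump of the mouse sciatic nerve. The genes were taken by symbol: every gene with a protein-coding transcript whose symbol begins with Wnt, Fzd, Sfrp, Dkk, Rspo or Axin and a digit, together with Wif1, Lrp5 and Lrp6. They are 19 Wnt ligands, 10 Frizzled receptors, 2 LRP co-receptors, 9 secreted inhibitors, 4 R-spondins and 2 Axins, out of 54309 genes in the files, of which 21669 had a protein-coding transcript. Female and male C57BL/6 mice aged 6 to 8 weeks had the left sciatic nerve transected at mid-thigh, and the stump toward the spinal cord was taken at 24 h. Each library pooled the nerves of 2 mice, and there were 3 libraries per sex. All 6 libraries came from axotomised nerves, so the comparison is between the sexes after injury, and the uninjured (sham) nerves of the study were not analysed here.

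Wnt proteins are lipid-modified secreted ligands that bind a Frizzled receptor together with the co-receptors Lrp5 or Lrp6. In the canonical branch this disassembles a destruction complex built on Axin and Apc, so that beta-catenin accumulates and acts with TCF and LEF factors in the nucleus. Secreted Frizzled-related proteins (Sfrp) and Wif1 bind the ligands, Dickkopf proteins such as Dkk1 and Dkk2 bind the LRP co-receptors, and Dkk3 is a divergent Dickkopf. R-spondins act through Lgr receptors to keep Frizzled on the cell surface. In peripheral nerve, this pathway is known for its part in the expression of myelin genes by Schwann cells.

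The stretches of genome just before the start of the main transcript of 3 of the genes described below are printed here: Dkk2, which was called higher in females, Sfrp5, the most abundant of the 46, and Lrp6, the more abundant co-receptor. Each is the 150 bases before the start of the gene's most abundant transcript, 5′ to 3′ on the gene's strand in GRCm39, and capitals mark a motif found on the printed strand. For Dkk2 this is the start of the 1 transcript in the files. A transcript annotated later, Dkk2-202, starts farther upstream, so that the printed stretch lies inside the annotated gene, in the first intron of that transcript. The motif searched for TCF and LEF factors was CTTTGA, the core they bind. The motif searched as a start-site element was TATAAA.
Dkk2 (chr3:131790893-131791042, plus strand): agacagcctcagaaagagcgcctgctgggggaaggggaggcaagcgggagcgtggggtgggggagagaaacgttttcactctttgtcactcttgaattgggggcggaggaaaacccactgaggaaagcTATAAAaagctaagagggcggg
Sfrp5 (chr19:42190692-42190841, minus strand): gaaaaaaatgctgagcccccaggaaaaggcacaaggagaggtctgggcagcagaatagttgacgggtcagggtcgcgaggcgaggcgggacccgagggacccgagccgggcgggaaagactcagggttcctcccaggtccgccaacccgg
Lrp6 (chr6:134544213-134544362, minus strand): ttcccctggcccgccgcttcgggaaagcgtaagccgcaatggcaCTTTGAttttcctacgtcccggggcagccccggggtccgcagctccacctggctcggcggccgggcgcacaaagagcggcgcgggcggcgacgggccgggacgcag
The Dkk2 stretch held TATAAA from 22 bases before the start, and the Lrp6 stretch held CTTTGA from 106 bases before the start. In the 250 bases upstream, searched on both strands, CTTTGA was present in 3 of the 35 members tested (Fzd7, Lrp6 and Wnt11; 8.57%) and in 12.7% of the 18297 windows read over all genes tested. TATAAA was present in 4 of 35 (Dkk2, Fzd8, Wnt5a and Wnt11; 11.4%), against 9.13% of all windows. Some of the members' windows lie inside the annotated gene, among them those of Axin1, Fzd7, Wif1, Wnt5a and Wnt10b. The median GC content of the members' windows was 64.0%, against 54.8% over all windows. All windows include those of genes without a protein-coding transcript, whereas every member has such a transcript, so the sets are not alike. The window of Dkk3, called higher in males, held neither set of letters. It is not printed because most of it lies in exons of transcripts annotated later.

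The 46 genes lay on 16 chromosomes, none of them X or Y. In 4 pairs of Wnt genes the members lay within 50 kb of each other. The neighbours differed in level except in the pair of Wnt9b and Wnt3, where both had too few counts to compare. Levels are compared between genes in TPM, the deposited abundance corrected for transcript length, as the mean of 6 libraries. On chromosome 1, Wnt6 stood at 14.6 TPM and Wnt10a, 5.70 kb away, at 1.14. On chromosome 11, Wnt9a stood at 5.31 TPM and Wnt3a, 16.0 kb away, at 0.00337. Wnt9b and Wnt3, also on chromosome 11, stood at 0.0511 TPM and at 0. On chromosome 15 the annotated spans of Wnt10b (0.893 TPM) and Wnt1 (0.0232 TPM) lie on opposite strands and overlap by 2308 bases, so reads there could be shared.

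Library depth ran from 49158283 to 69848769 estimated counts. Xist and the Y-linked genes Ddx3y and Eif2s3y separated the libraries by their labelled sex, but the labelled female 3 carried 139 Ddx3y and 147 Eif2s3y counts against 0 in the other 2 females, and male 1 carried 193 Xist counts against 6 and 16 in the other males. Results are therefore also given without these 2 libraries. The tissue carried its defining markers: 10 of 10 Schwann cell markers passed the low-count filter. Their summed level was 22664 to 30202 CPM (counts scaled to TMM-adjusted library size, used for one gene across libraries) in females and 52723 to 62496 in males, and 5 of 10 were called higher in males. Of 12 markers of central neurons and glia, 11 were called higher in males, with a summed level of 2.89 to 4.89 CPM in females, where Ermn was at 0, and 25.7 to 68.4 in males. In bulk tissue, fewer cells of a type and less RNA per cell cannot be told apart.

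The secreted inhibitors were by far the most abundant class in TPM. Sfrp5 stood at 362, 492 and 463 TPM in females 1 to 3 and at 560, 370 and 580 in males 1 to 3, mean 471, which placed it 244th of 18533 protein-coding genes with a count. Sfrp4 followed with 224, 279 and 248 TPM in females and 311, 183 and 252 in males, mean 250 and rank 486. The male range of both genes enclosed the female range or overlapped it. Together with the other 7 inhibitors they summed to 752 ± 102 TPM (SD, n = 3) in females and 825 ± 179 in males. The 19 ligands summed to 33.8 ± 7.79 TPM in females and 35.2 ± 7.45 in males. The ratio of summed inhibitor TPM to summed ligand TPM was 20.3, 19.7 and 28.5 in females and 23.6, 23.2 and 23.4 in males, and the male values lay within the female range. Sums over members are given without a test.

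The receptor side was lower than the inhibitors and higher than the ligands. The 10 Frizzled receptors summed to 103 ± 19.5 TPM in females and 101 ± 19.4 in males, and the LRP co-receptors to 47.9 ± 9.21 and 39.9 ± 4.67. R-spondins summed to 14.5 ± 3.98 TPM in females and 20.7 ± 5.24 in males, and the Axins to 18.3 ± 2.38 and 18.3 ± 1.03. In each class the sexes differed by less than the sum of their SDs.

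**Figure D1:**
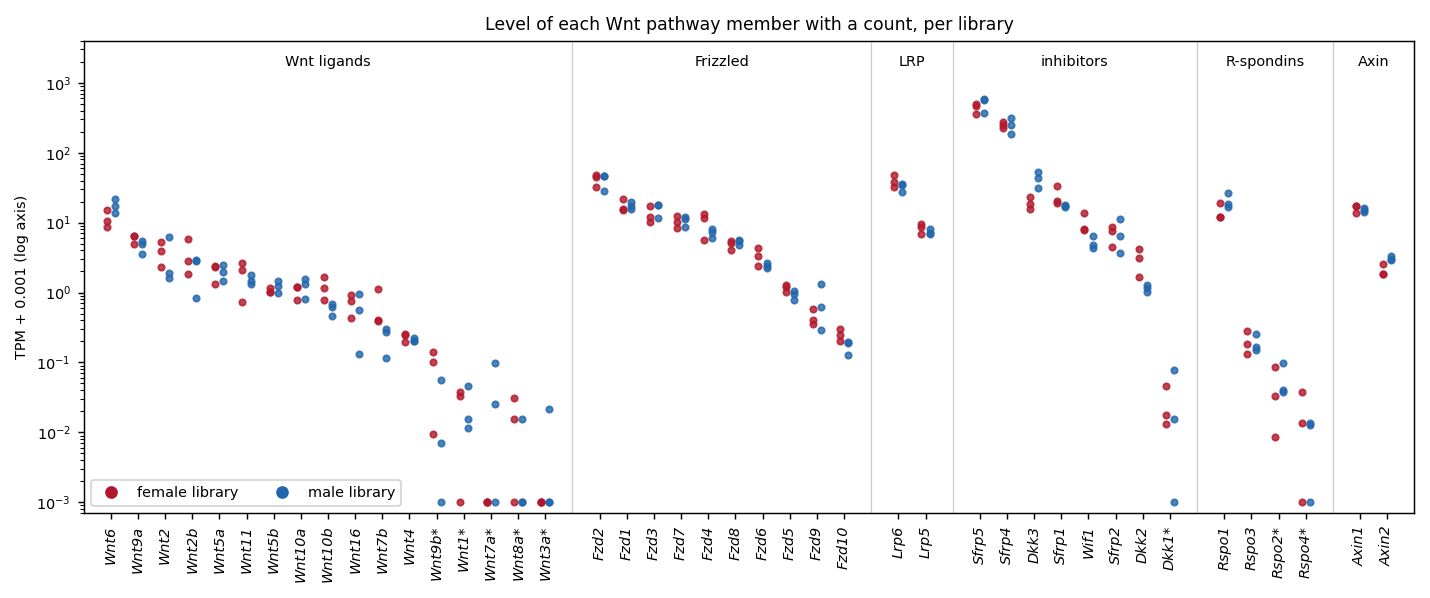
TPM of the 43 members with a count in any library, on a log axis after adding 0.001 so that values of 0 appear at the bottom, with female libraries in red and male libraries in blue; genes are ordered by mean TPM within each class and an asterisk marks those below the filter on low counts. Sfrp5 (mean 471 TPM) and Sfrp4 (mean 250 TPM) stand above all other members, and the sexes separate visibly at Dkk3 and Dkk2.

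**Figure D2:**
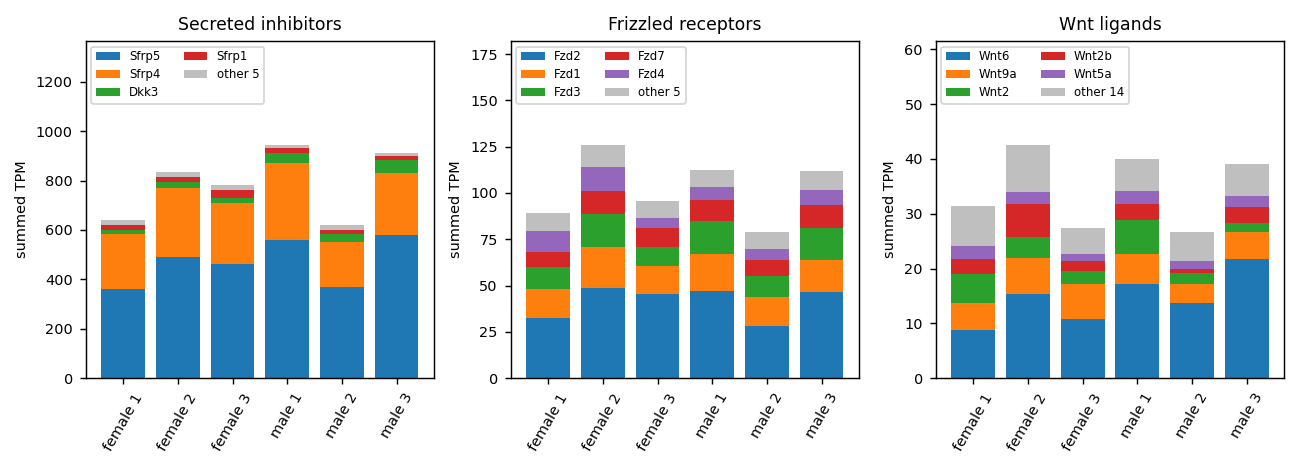
Summed TPM of the secreted inhibitors, Frizzled receptors and Wnt ligands in each library, as stacked bars split by the most abundant genes and the rest in grey. The inhibitor bars run from 619 to 943 TPM and the ligand bars from 26.7 to 42.5 TPM, and Sfrp5 makes up 56.7 to 63.5% of every inhibitor bar.

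Of 16 shares of a class (up to 3 leading genes in each of the 6 classes), 9 did not overlap between the sexes. Those of Sfrp5, Dkk3, Wnt6, Fzd3, Rspo1 and Axin2 were higher in males, and those of Wnt9a, Rspo3 and Axin1 in females. Shares within a class sum to a whole, so they do not move independently. Axin1 and Axin2 are the whole of their class, so their shares hold the same difference, counted under both names. Shares within other gene families were not computed, so the count of 9 has no background to be read against. Sfrp5 made up 56.7, 58.9 and 59.1% of inhibitor TPM in females and 59.4, 59.7 and 63.5% in males. Dkk3 made up 2.44, 2.76 and 2.39% in females and 4.56, 5.09 and 5.74% in males. Among ligands, Wnt6 made up 27.9, 36.2 and 39% in females and 42.9, 51.4 and 55.6% in males. The level of Wnt6 itself overlapped between the sexes (below). Rspo1 carried 97.7 to 99.0% of R-spondin TPM in all 6 libraries. Lrp6 carried 79.4 to 84.9% of LRP TPM. Of the Axin pair, Axin2, a target of the pathway as well as a part of it, made up 9.57 to 12.9% in females and 15.7 to 17.7% in males. These shares include shorter transcripts of Axin2 (below).

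Of the 46 genes, 35 had enough counts for a test between the sexes in the fit over all 18424 genes (edgeR, quasi-likelihood F test, adjusted p under 0.1). Dkk3 was called higher in males and Dkk2 higher in females, and none of the ligands, receptors, co-receptors, R-spondins or Axins was called. These 2 of 35 (5.71%) stand against 5.27% of all genes called, 3.81% higher in males and 1.46% higher in females. Counting genes with an unadjusted p under 0.05 gave 7 of 35 members (20.0%), against 20.7% of all genes. For 8 of 35 members (22.9%) all CPM values of one sex lay above those of the other, against 25.5% of all genes. Of those, 1 was higher in males, where 13.9% of all genes were so, and 7 (20.0%) were higher in females, where 11.5% were. In either direction together, the members' shares by these 3 counts were near the background. Of the 35, 14 had a positive log2 fold change (male minus female) and 21 a negative one, with a median of −0.16, against −0.03 over all genes tested (−0.038 against −0.023 with an offset for mean transcript length). The median absolute log2 fold change was 0.32, against 0.23 over all genes.

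**Figure D3:**
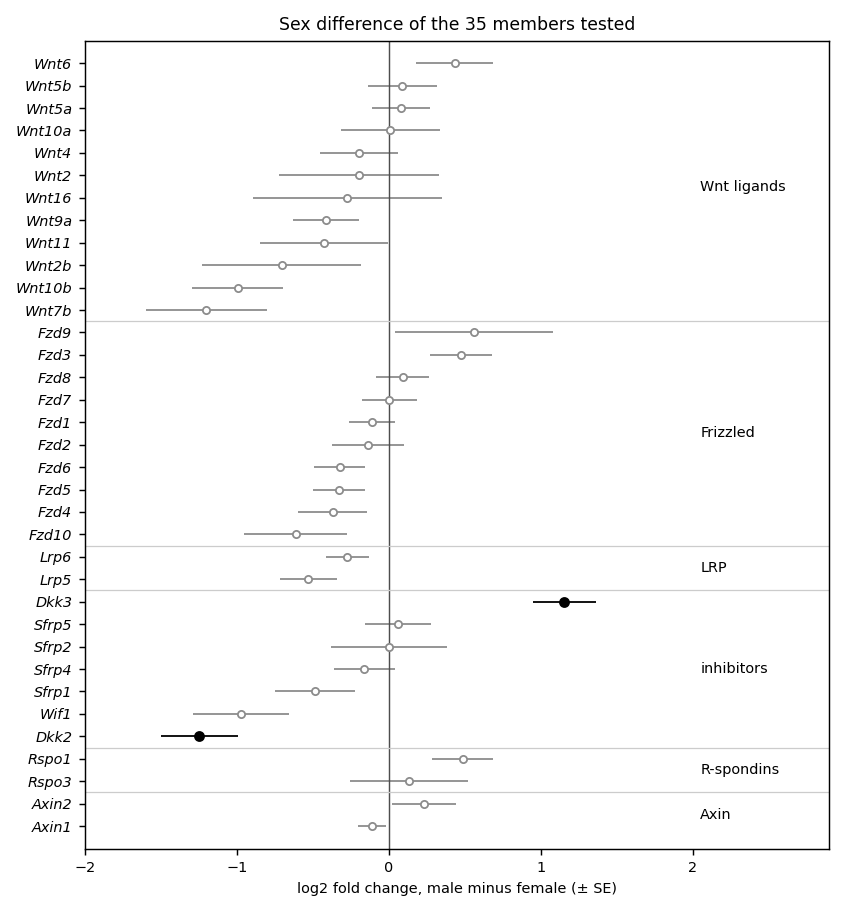
Log2 fold change, male minus female, with its SE for the 35 members tested, grouped by class; filled black points mark an adjusted p under 0.1 (edgeR). Dkk3 (1.16) and Dkk2 (−1.25) are the filled points, and most other members lie between −0.6 and 0.6.

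The inhibitors held both called members. Dkk3 (ENSMUSG00000030772.7, chr7:111712904-111758760) stood at 35.1, 51.2 and 50.1 CPM in females and at 105, 76.0 and 123 CPM in males. Every male library was above every female library, with a log2 fold change of 1.16 ± 0.21 (SE, n = 3 per sex; edgeR adjusted p = 0.047). The call was lost without female 1 (log2 fold change 1.0, adjusted p = 0.174) or male 3 (0.99, adjusted p = 0.167). Without female 3 and male 1 together it was 1.21 ± 0.29 (adjusted p = 0.0855). Per 1000 CPM of the 10 Schwann cell markers, Dkk3 stood at 1.55, 1.79 and 1.66 in females and at 1.86, 1.44 and 1.97 in males, and on that scale the sexes overlapped. The part of the markers of central neurons and glia, also higher in every male library, was not tested.

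Dkk2 (ENSMUSG00000028031.7, chr3:131790336-131886065), which binds the LRP co-receptors, stood at 6.70, 9.29 and 4.85 CPM in females and at 2.55, 3.05 and 3.18 CPM in males. Every female library was above every male library, with a log2 fold change of −1.25 ± 0.26 (edgeR adjusted p = 0.0604). The male libraries lay close together and the female libraries ranged widely. Without female 3 the log2 fold change was −1.45 ± 0.21 (adjusted p = 0.0441), and without female 3 and male 1 together it was −1.36 ± 0.23 (adjusted p = 0.0596). Each of the other 5 libraries left out in turn moved the adjusted p past 0.1, to between 0.103 and 0.197, with log2 fold changes of −1.31 to −0.98. Per 1000 CPM of the Schwann cell markers, Dkk2 stood at 0.296, 0.324 and 0.161 in females and at 0.0454, 0.0578 and 0.0509 in males, without overlap. The marker sum was itself higher in every male library, so that scale widens a difference in this direction. Markers of other cell types in the dissected tissue differed among libraries as well. None of 9 adipocyte markers was called, with a summed level of 707, 396 and 96.6 CPM in females and 66.0, 300 and 144 in males; 3 of 11 skeletal muscle markers tested were called higher in females, with sums of 403, 612 and 40.1 CPM in females and 10.4, 7.20 and 748 in males. The part of these cell types in the difference of Dkk2 was not tested.

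**Figure D4:**
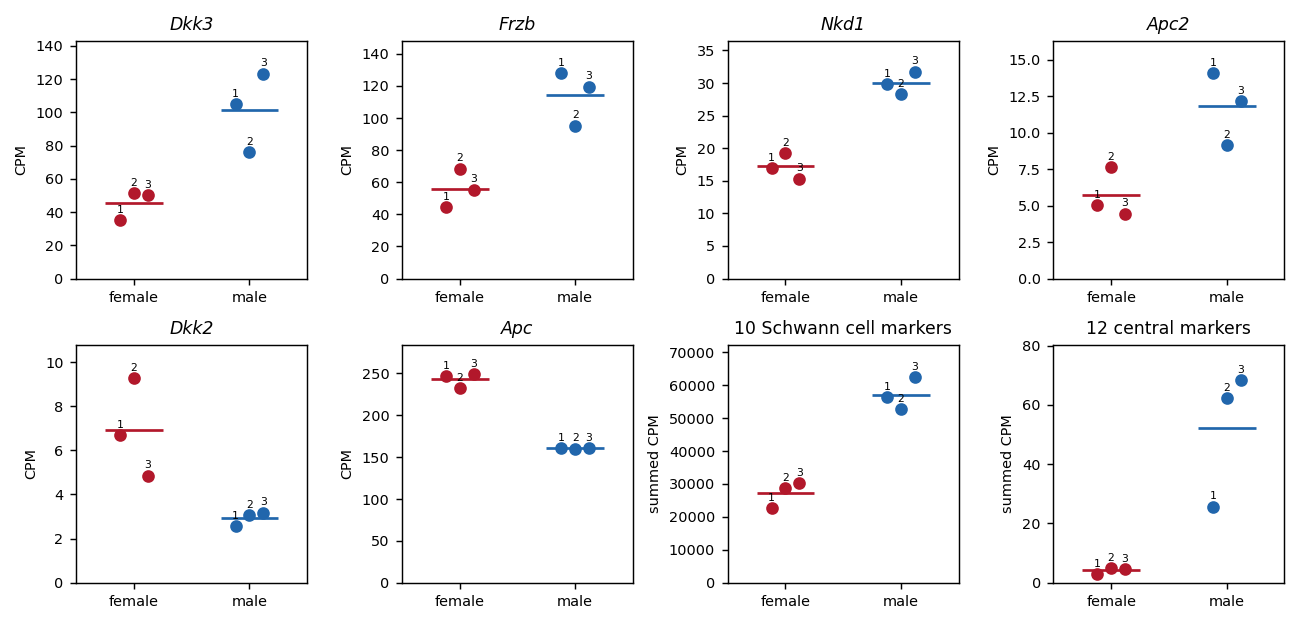
CPM per library of the called members (Dkk3, Dkk2) and the called genes of the pathway lists (Frzb, Nkd1, Apc2, Apc), and the summed CPM of 10 Schwann cell markers and 12 markers of central neurons and glia; numbers are replicates, bars are means, and all axes start at 0. Dkk3, Frzb, Nkd1 and Apc2 and both marker sums are higher in every male library, and Dkk2 and Apc are higher in every female library.

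**Figure D5:**
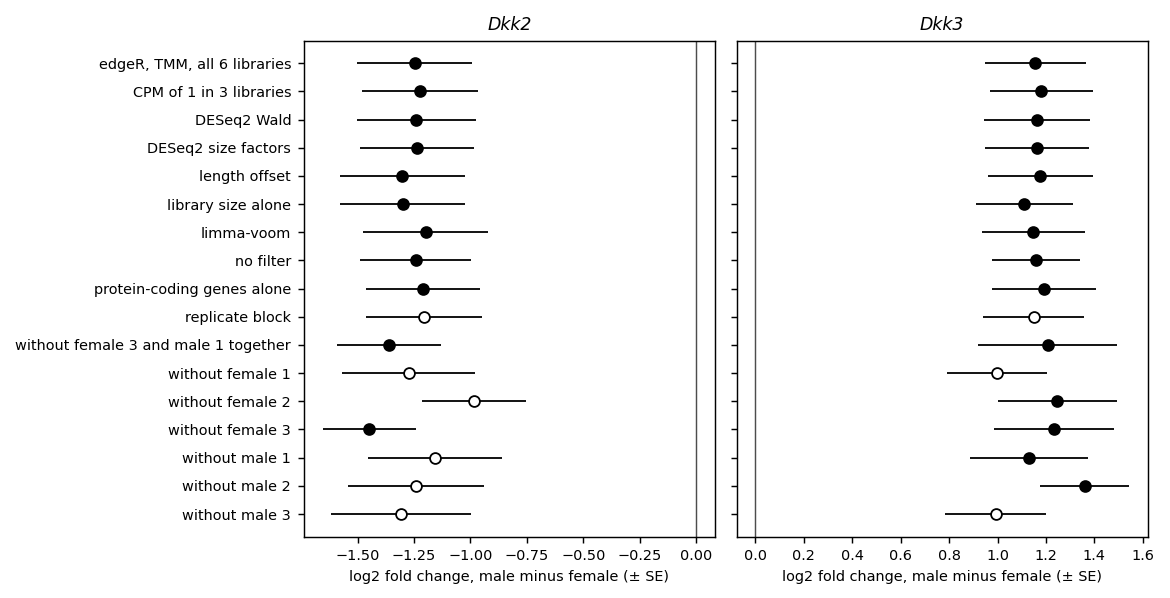
Log2 fold change, male minus female, with its SE for Dkk2 and Dkk3 with all 6 libraries in edgeR (top) and each alternative; filled points have an adjusted p under 0.1. The direction holds in every row, Dkk2 ranges from −1.45 to −0.98 and Dkk3 from 0.99 to 1.36.

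Wif1, the Wnt inhibitory factor, stood at 7.01, 7.16 and 14.2 CPM in females and at 6.09, 4.45 and 3.90 CPM in males. The groups did not overlap, but the difference did not pass the threshold (log2 fold change −0.97 ± 0.31, edgeR adjusted p = 0.149). Female 3 was the highest, and without it the log2 fold change was −0.56 ± 0.22. Most of the Wif1 signal, 82.9% of its TPM, was assigned to a transcript annotated as a retained intron. The coding transcript Wif1-201 alone stood at 2.26, 2.03 and 1.47 TPM in females and at 0.948, 0.380 and 0.664 TPM in males, with female 3 the lowest female library.

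The abundant Sfrp genes showed no such separation. Sfrp5 stood at 478, 580 and 579 CPM in females and at 661, 392 and 653 in males (log2 fold change 0.06 ± 0.22, adjusted p = 0.898). For Sfrp4 the log2 fold change was −0.16 ± 0.20 (adjusted p = 0.683). Its coding transcripts were split differently by library: Sfrp4-204 took 7.22, 41.7 and 69.8 TPM in females and 121, 91.6 and 74.7 in males, while Sfrp4-201, the main one, took 198, 216 and 161 TPM and 173, 75.2 and 161. Sfrp1 stood at 108 CPM in female 3 and between 48.6 and 54.8 CPM in the other 5 libraries (−0.49 ± 0.26, adjusted p = 0.336). Sfrp2 ranged from 4.05 to 11.8 CPM, both extremes being male libraries. Of the remaining Dickkopfs, Dkk1 had 13 counts over all libraries and Dkk4 had none.

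Among the ligands, the members nearest to a difference were both higher in females. Wnt10b, known as a brake on adipocyte formation, stood at 1.89, 2.62 and 1.43 CPM in females and at 1.19, 0.815 and 0.975 in males (log2 fold change −0.99 ± 0.30, adjusted p = 0.130). Wnt7b stood at 0.898, 1.47 and 0.970 CPM in females and at 0.267, 0.550 and 0.643 in males (−1.20 ± 0.40, adjusted p = 0.155). In both, every female library was above every male library, and neither passed the threshold. DESeq2's Wald test called Wnt10b (adjusted p = 0.0516), Wnt7b (0.0867), Wif1 (0.0247) and Lrp5 (0.0888) higher in females beside Dkk2, with 4.52% of all genes called in that direction. Leaving out female 3 and male 1 gave 5 members higher in females (Dkk2, Lrp5, Wif1, Wnt10b and Wnt2), with 5.28% of all genes so called. Without female 3 alone there were 4 (Dkk2, Fzd4, Lrp5 and Wnt10b), with 6.62% of all genes. With no filter on low counts there were 2 (Dkk2 and Wif1), with 1.77% of all genes.

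Wnt6, the most abundant ligand, stood at 11.4, 18.5 and 12.6 CPM in females and at 20.0, 13.5 and 23.9 in males. Female 2 was above male 2, and the log2 fold change of 0.43 ± 0.25 did not pass the threshold (adjusted p = 0.369). For Wnt9a, the next most abundant, the log2 fold change was −0.41 ± 0.22 (adjusted p = 0.325). Wnt2 stood at 7.81, 5.56 and 3.93 CPM in females and at 9.68, 2.92 and 2.44 in males, so that male 1 alone was above all females (−0.20 ± 0.53, adjusted p = 0.860). The remaining 7 ligands tested were Wnt2b, Wnt5a, Wnt11, Wnt5b, Wnt10a, Wnt16 and Wnt4. They had mean levels of 0.220 to 2.84 TPM and log2 fold changes of −0.71 (Wnt2b) to 0.09 (Wnt5b), with adjusted p from 0.481 to 0.991. Wnt2b was spread widely in both sexes, at 6.37, 12.8 and 4.57 CPM in females and 6.37, 1.83 and 6.36 in males. Of Wnt4 the sexes did not overlap, at 0.716 to 0.801 CPM in females and 0.643 to 0.691 in males. Of the TPM of Wnt11, 56.8% went to a transcript annotated as a target of nonsense-mediated decay.

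The other 7 ligands, Wnt1, Wnt3, Wnt3a, Wnt7a, Wnt8a, Wnt8b and Wnt9b, were below the filter. Wnt9b had 55 counts over the 6 libraries, Wnt7a 14, Wnt1 11, Wnt8a 4 and Wnt3a 2. The 14 counts of Wnt7a were all in males 2 and 3. Wnt3 and Wnt8b, like Dkk4, had 0 counts in every library, which at this depth allows up to 3 counts, or 0.0429 to 0.0610 CPM of the library totals, per library, for counting error only.

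None of the Frizzled receptors was called. Fzd2 was the most abundant, at 32.3 to 48.7 TPM in females and 27.9 to 47.2 in males, followed by Fzd1 (mean 17.5 TPM) and Fzd3 (mean 14.5 TPM). Fzd2 had a log2 fold change of −0.14 ± 0.24 (adjusted p = 0.784) and Fzd1 of −0.11 ± 0.15 (adjusted p = 0.707). Fzd3, a receptor known for its role in axon guidance, stood at 61.8, 101 and 86.5 CPM in females and at 130, 91.6 and 125 in males. Male 2 lay below female 2, and the difference of 0.47 ± 0.20 (log2) had an adjusted p of 0.242. The remaining Frizzled receptors, Fzd4 to Fzd10, had mean levels of 0.209 to 10.5 TPM. Their log2 fold changes ran from −0.61 (Fzd10) to 0.56 (Fzd9), with adjusted p from 0.318 to 0.993. Fzd5 and Fzd10 were higher in every female library, at 4.79 to 5.12 against 3.33 to 4.35 CPM and at 0.430 to 0.603 against 0.253 to 0.401 CPM. Fzd9 stood at 1.74 CPM in male 3 and between 0.401 and 0.797 CPM elsewhere.

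Lrp6 stood at 179, 221 and 187 CPM in females and at 185, 138 and 164 in males (log2 fold change −0.27 ± 0.14, adjusted p = 0.322). Lrp5 stood at 42.3, 36 and 26.1 CPM in females and at 27.5, 21.3 and 23.5 in males, and female 3 lay below male 1 (−0.53 ± 0.19, adjusted p = 0.173). Its coding transcript Lrp5-201 took 8.92, 8.45 and 4.05 TPM in females and 4.38, 3.63 and 4.47 in males. A transcript annotated as a target of nonsense-mediated decay, the second of its 4 by level, took 0.347, 0 and 2.69 TPM in females and 3.45, 3.40 and 2.32 in males. Female 3 thus lay with the males in both transcripts. With the length offset the log2 fold change of Lrp5 was −0.13 ± 0.12 (edgeR adjusted p = 0.570).

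Rspo1 stood at 14.0, 19.3 and 13.6 CPM in females and at 21.0, 17.6 and 27.1 in males, with female 2 above male 2 (log2 fold change 0.49 ± 0.20, adjusted p = 0.228). Rspo3 was tested at a mean of 0.194 TPM (0.13 ± 0.39, adjusted p = 0.874), and Rspo2 and Rspo4 were below the filter with 29 and 7 counts. Axin1 ranged from 39.2 to 47.4 CPM (−0.11 ± 0.09, adjusted p = 0.542). Axin2, often read as a reporter of canonical signalling, stood at 5.31, 7.50 and 4.72 CPM in females and at 6.22, 6.49 and 7.90 in males (0.23 ± 0.21, adjusted p = 0.570). Neither Axin separated the sexes in CPM. In TPM, which is corrected for length, Axin2 stood at 1.85, 2.57 and 1.86 in females and at 3.30, 3.02 and 2.93 in males, without overlap. Its main coding transcript alone overlapped, at 1.46, 2.21 and 0.868 TPM in females and at 1.28, 1.47 and 2.3 in males. A shorter transcript annotated as non-coding took 0.860 TPM in female 3, 0.954 in male 1 and 1.11 in male 2. With an offset for mean transcript length in the fit, the log2 fold change of Axin2 was 0.60 ± 0.19 (edgeR adjusted p = 0.131). Both the TPM of the gene and this offset depend on the division among transcripts.

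Outside the 46 genes, 8 lists of pathway genes held 69 genes, of which 66 were tested. Of these 66, 3 were called higher in males (Frzb, Nkd1 and Apc2) and 1 higher in females (Apc), and the median log2 fold change of the 66 was 0.02. Over all genes tested, 5.27% were called, 3.81% higher in males and 1.46% higher in females, so the lists lay near the background. Frzb, a secreted Frizzled-related protein under another symbol and the 1 gene called among 8 other secreted modulators tested, stood at 44.5, 68.5 and 55.4 CPM in females and at 128, 95.3 and 120 CPM in males (log2 fold change 1.03 ± 0.18, adjusted p = 0.0447). Nkd1, a feedback inhibitor that is itself a target of beta-catenin, stood at 17.0, 19.3 and 15.3 CPM in females and at 29.8, 28.4 and 31.8 in males (0.80 ± 0.12, adjusted p = 0.0353). It was the 1 called of 9 targets tested. Divided by the Schwann cell sum in the same way, the sexes overlapped for both genes, with Frzb at 1.83 to 2.39 in females and 1.81 to 2.28 in males. Nkd1 stood at 0.750, 0.674 and 0.508 in females and at 0.529, 0.538 and 0.508 in males. Its overlap rested on female 3 alone, and females 1 and 2 lay above every male on that scale.

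The destruction complex held both directions among its 15 genes tested. Apc, the scaffold that binds beta-catenin, stood at 246, 233 and 249 CPM in females and at 161, 160 and 160 in males (log2 fold change −0.60 ± 0.09, adjusted p = 0.0376). With the length offset it was −1.01 ± 0.15 (adjusted p = 0.0362). Its relative Apc2 stood at 5.04, 7.66 and 4.45 CPM in females and at 14.1, 9.16 and 12.2 in males (1.05 ± 0.25, adjusted p = 0.0844). All 4 calls, like that of Dkk3, were lost without female 1 or without male 3, fits in which only 1 and 7 genes of the whole series were called. Apc2 was also lost without male 1 and without female 3 and male 1 together.

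No gene of the other 5 lists was called. In Wnt secretion, Wls, which carries Wnt proteins to the cell surface, stood at 54.8, 55.9 and 41.8 CPM in females and at 36.5, 35.6 and 38.0 in males (log2 fold change −0.47 ± 0.13, adjusted p = 0.104), and Porcn, which acylates them, differed by 0.11 ± 0.13 (adjusted p = 0.663). Of 5 R-spondin receptors and regulators of Frizzled turnover, those nearest to the threshold were Lgr6 (−0.55 ± 0.19, adjusted p = 0.171) and Lgr5 (−0.34 ± 0.16, adjusted p = 0.267). The Dickkopf co-receptors Kremen1 (0.05 ± 0.13, adjusted p = 0.852) and Kremen2 (0.33 ± 0.43, adjusted p = 0.698) overlapped between the sexes. Among 12 alternative receptors and planar polarity genes, Ror2 (−0.55 ± 0.20, adjusted p = 0.177) and Ptk7 (−0.35 ± 0.13, adjusted p = 0.178) had the smallest p. Among 13 nuclear factors they were Ctnnbip1, an inhibitor of the binding of beta-catenin to TCF (0.37 ± 0.10, adjusted p = 0.104), and Pygo1 (0.56 ± 0.19, adjusted p = 0.160).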

How the data were processed

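RNA-seq was performed on proximal sciatic nerve stumps, 3 female and 3 male libraries grouped by the sex in their labels, each a pool of 2 mice, so that p-values measure the spread between pools. The submitters' processing notes name Trimmomatic 0.39, Salmon 1.5.2 and MultiQC 1.9. The authors deposited, per transcript, estimated counts (not normalised), TPM values scaled to 1 total per library, and effective lengths; reads that match several transcripts are split by a model, so their division among isoforms is an estimate. The study's methods name a GENCODE mouse release, and coordinates and windows here come from GENCODE M39 on GRCm39, in which 53700 genes (98.9%) and all 46 members were found.

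Counts and TPM were summed per gene. In R 4.3.3, rounded counts were filtered (filterByExpr), TMM-normalised and tested with edgeR 4.0.16 (quasi-likelihood F test, sex as the only term, Benjamini-Hochberg over all genes tested, adjusted p under 0.1). SEs are the absolute log2 fold change over root F. The fit was also run on simulated counts as a check of the code, and the outcome is not given here. CPM used TMM-adjusted library sizes. Alternatives were DESeq2 1.42.0, limma 3.58.1 (voom), other filters, scalings and thresholds, a length offset, TPM rescaled by TMM, a block on replicate number, a fit to coding genes only, and leaving out libraries. Members and lists were chosen with earlier results of these data known. Genes were named where they were called, where the sexes did not overlap at an unadjusted p under 0.05, or where they were among the 3 highest of a class by TPM; of each pathway list, the called genes or the 2 with the smallest p were named. The other members are given by range. Nerve fibroblast, perineurial, endothelial, mural, leukocyte and keratinocyte markers had no gene called, with summed levels of 6799 to 8700, 579 to 784, 240 to 342, 341 to 452, 827 to 1391 and 2.03 to 2.39 CPM in females and 7448 to 10632, 531 to 808, 242 to 274, 357 to 403, 544 to 1285 and 2.64 to 2.92 CPM in males (Krt14 at 0).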

Additional observations from a re-analysis of the deposited data

How the results depend on the processing

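Over all genes 971 were called. That count was 2400 with DESeq2, 1617 with no filter on low counts (beyond 1 count in any library), 284 at an adjusted p under 0.05, 1989 without female 3 and male 1 together, and 1 to 2612 with a library left out. Members called higher in females numbered 1, and 5 with DESeq2, 2 with no filter, 5 without female 3 and male 1, 0 at an adjusted p under 0.05, and 0 to 4 with a library left out. Members called higher in males numbered 1, and 0 to 1 with a library left out. Pathway genes called numbered 4, 11 with DESeq2, and 0 to 8 with a library left out. With the replicate number as a block, 56 genes were called, with 0 members in either direction and 0 pathway genes; same-numbered libraries did not deviate together (correlations −0.04, −0.30 and −0.29), so the numbers do not pair the libraries. Dkk3 then had an adjusted p of 0.130 and Dkk2 of 0.147. Apc2 was not called with library size alone (adjusted p = 0.108). The cause of these changes was not tested; a fit without a library has fewer samples.

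Dkk2 and Dkk3 kept their direction in every alternative, and the summed TPM of the classes moved by less than the spread between libraries. Log2 fold changes that turned sign belonged to genes that were never called in the fit concerned: Sfrp5 without female 3 and male 1 together (−0.017), Sfrp4 (0.024) and Fzd1 (0.031) with the length offset, and Kremen1 without female 3 and male 1 together (−0.10). With a library left out, the log2 fold change ran from −0.063 to 0.30 for Sfrp5, from −0.36 to 0.068 for Sfrp4, from −0.24 to 0.025 for Fzd1, from −0.29 to 0.12 for Fzd2, from −0.11 to 0.39 for Rspo3, from −1.10 to 0.13 for Wnt2 and from −0.065 to 0.21 for Kremen1.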
